A study of Saccharomyces cerevisiae with 4 samples.

Results

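The genes described here encode enzymes that make the aromatic amino acids phenylalanine, tyrosine and tryptophan in budding yeast, Saccharomyces cerevisiae. They are ARO1, ARO2, ARO3, ARO4, ARO7, ARO8, TRP2, TRP3, TRP4 and TRP5, the 10 genes picked by name out of 6782 gene rows in the authors' table, and all 10 were found and had enough reads to be tested. TRP1 was left out of the set because it is a marker gene of the strain background. The induced group was 2 cultures treated with 100 nM estradiol for 6 h, and the uninduced group was 2 cultures that received the solvent DMSO for 6 h. Cells of both groups were of the W303 background and carried the same construct, 6xIAPP, as a single copy at LEU2 behind an estradiol-inducible promoter, and were kept in log phase. IAPP, islet amyloid polypeptide, is a hormone of pancreatic beta cells that can form amyloid, and the study's title places the experiment within an assay of 6xIAPP toxicity. No library with estradiol but without the construct was analysed here, so effects of estradiol and of the construct cannot be told apart.

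The shikimate pathway joins erythrose 4-phosphate with phosphoenolpyruvate and carries the product through a chain of intermediates to chorismate. Chorismate is the branch point: chorismate mutase sends it towards phenylalanine and tyrosine, and anthranilate synthase sends it towards tryptophan. In yeast many amino acid synthesis genes, among them members of this pathway, are under general amino acid control by the transcription factor Gcn4, while DAHP synthase, the entry enzyme, is also inhibited by the end products.

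Upstream sequences are shown for 4 genes that differ in motif and in response. ARO4 fell most and has no motif in its window, and ARO1 fell and carries a Gcn4 motif. TRP3 carries the motif and moved little, and TRP4 was not called and carries a shorter form. Each window was read from RefSeq assembly R64 (strain S288C, not W303), on the coding strand, 5′ to 3′, from 250 bases before the start codon through the first 50 coding bases. ARO4 is at chrII:717945-718244 (minus strand), ARO1 at chrIV:704234-704533 (plus), TRP3 at chrXI:38104-38403 (minus) and TRP4 at chrIV:1184497-1184796 (plus). Capitals mark the Gcn4 motif TGACTCA, whose reverse complement is TGAGTCA, or its core TGACTC, whose reverse complement is GAGTCA.
ARO4: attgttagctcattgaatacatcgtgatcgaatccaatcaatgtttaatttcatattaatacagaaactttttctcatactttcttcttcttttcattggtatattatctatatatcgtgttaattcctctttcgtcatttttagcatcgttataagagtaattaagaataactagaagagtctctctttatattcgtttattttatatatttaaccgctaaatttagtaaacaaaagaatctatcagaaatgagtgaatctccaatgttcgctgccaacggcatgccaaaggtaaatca
ARO1: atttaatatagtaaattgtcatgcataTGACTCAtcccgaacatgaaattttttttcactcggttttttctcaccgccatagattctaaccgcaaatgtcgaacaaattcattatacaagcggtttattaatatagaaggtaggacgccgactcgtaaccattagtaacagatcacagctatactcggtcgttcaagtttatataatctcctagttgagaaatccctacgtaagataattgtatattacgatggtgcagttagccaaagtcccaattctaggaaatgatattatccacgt
TRP3: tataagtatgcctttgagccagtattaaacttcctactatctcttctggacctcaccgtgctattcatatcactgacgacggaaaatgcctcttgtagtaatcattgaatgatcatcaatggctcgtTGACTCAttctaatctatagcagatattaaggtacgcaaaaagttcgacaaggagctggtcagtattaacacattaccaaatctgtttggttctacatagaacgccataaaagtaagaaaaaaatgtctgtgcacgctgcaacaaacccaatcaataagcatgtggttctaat
TRP4: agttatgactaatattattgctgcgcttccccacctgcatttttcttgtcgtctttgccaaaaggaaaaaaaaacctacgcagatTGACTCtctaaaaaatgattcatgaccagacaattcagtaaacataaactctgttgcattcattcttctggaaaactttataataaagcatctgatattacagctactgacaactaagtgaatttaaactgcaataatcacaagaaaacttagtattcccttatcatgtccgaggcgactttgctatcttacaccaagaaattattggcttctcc
The full motif, on either strand, was in the windows of 3 of the 10 genes, against 2.73% of 6001 protein-coding gene windows of the same length, and the core, which lies within the full motif, was in 4 of 10, against 7.98%. The full motif began 223 bases upstream of the start codon in ARO1, 162 in TRP2 and 123 in TRP3, and the core of TRP4 began 165 bases upstream. TRP2 held another core inside the coding part of its window. In ARO2, ARO3, ARO4, ARO7, ARO8 and TRP5 these letters were not in the window, which says nothing of sites that lie farther away or are spelled differently.

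Levels are the authors' normalized CPM, reads of a gene scaled by the size of its library, and those of the 10 genes are given per library. Whole reads recovered from these values came to 11694161 and 14724917 in the induced libraries, against 15582338 and 10397606 in the uninduced libraries. The fewest reads for any of the 10 genes was 393, for ARO7 in uninduced library 2, which gives a counting error of 5.04%, and for the other members it was at most 2.49%. Fold changes are differences of log2(CPM + 1), uninduced subtracted from induced, given with their standard error (SE), and a gene is called where limma's Benjamini-Hochberg adjusted p is under 0.05. Over all 6037 genes tested, 37.0% were called lower and 35.6% higher, so a call by itself is common in this comparison. Normalized CPM is a relative value from a whole culture, so fewer cells with a transcript and less of it per cell cannot be told apart.

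The mRNAs for the entry into the shikimate pathway, and for its long middle section, were lower in induced cells, while those of the tryptophan branch changed by smaller steps. Of the 10 members, 8 were called lower, 1 higher and 1 was not called. The 10 log2 fold changes ran from -1.004 for ARO4 to 0.21 for ARO7, with a median of -0.21, beside a median of 0.00 over all genes tested. In each of the 10 genes the induced libraries lay entirely on one side of the uninduced libraries, 9 below and 1 above, against 43.1% of all genes tested below and 42.9% above. The number of calls depended on the test and the scaling. By edgeR on recovered reads 7 members were lower and 1 higher, against 36.7% and 36.4% of all genes, and by DESeq2 5 were lower and 0 higher, against 32.5% and 30.8%. With total-count scaling 5 were lower and 1 higher, against 29.4% and 44.1%, and after quantile normalization 5 were lower and 1 higher, against 35.9% and 35.8%. Of the members, ARO1, ARO3, ARO4 and ARO8 were called lower in each of the 14 alternatives run.

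**Figure D1:**
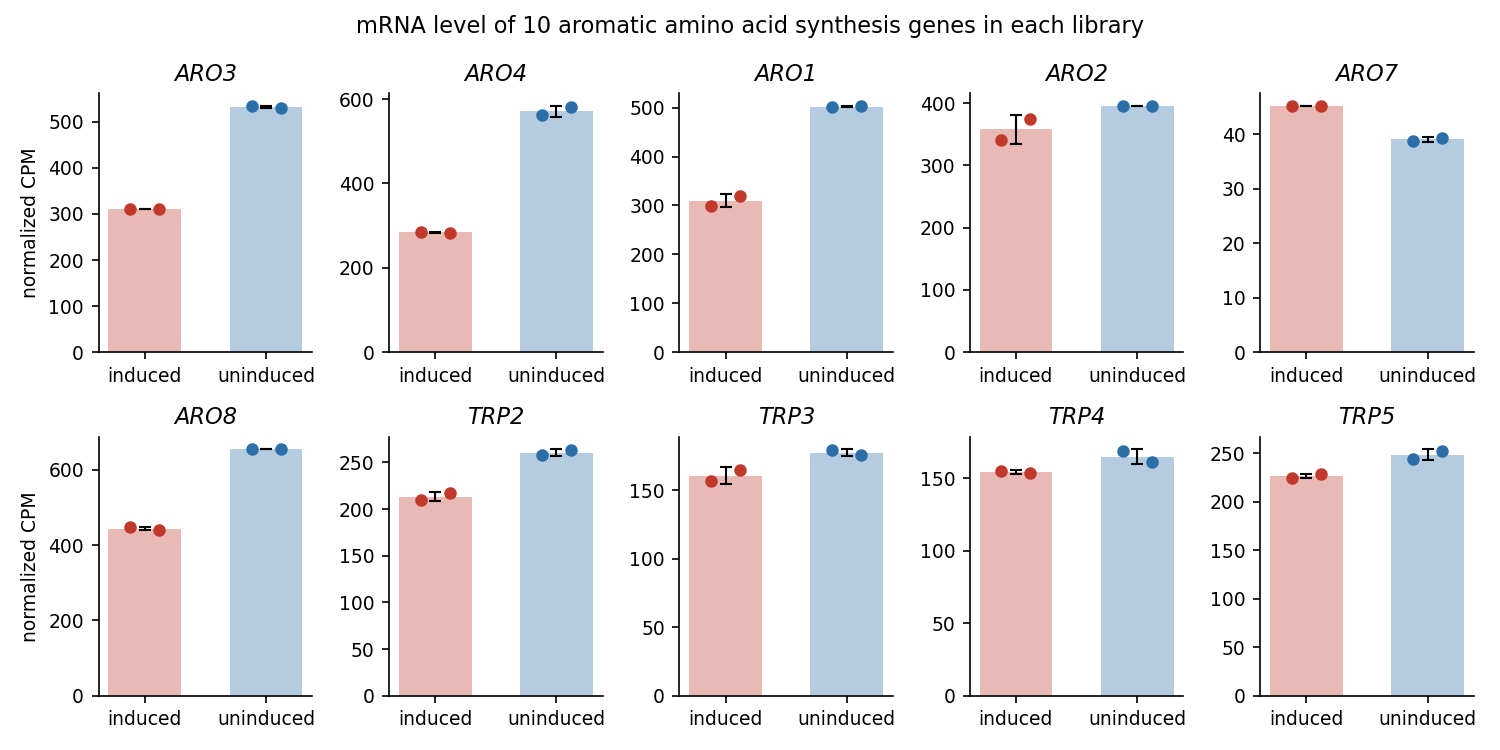
Normalized CPM (vertical axes, from 0) of each of the 10 genes in induced (red) and uninduced (blue) cultures, with points for libraries, bars for the mean and error bars for the SD of 2 libraries. ARO3, ARO4, ARO1 and ARO8 stand clearly lower in induced libraries, while the TRP genes and ARO2 differ by smaller steps and ARO7 is slightly higher.

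ARO3 and ARO4 encode the isozymes of DAHP synthase, which make the committed step into the pathway and differ in which amino acid inhibits them, phenylalanine for Aro3 and tyrosine for Aro4. ARO4 (YBR249C, chromosome II, 716882 to 717994, minus strand, single coding exon) had 285 and 283 CPM in the induced libraries, against 561 and 580.3 CPM in the uninduced libraries. The induced values were close together and far below both uninduced values. Its mean was 284 ± 1.92 CPM in induced cells and 571 ± 13.4 CPM in uninduced cells (SD, n = 2 each), a ratio of 0.498. The log2 fold change was -1.004 ± 0.05 (SE; limma, adjusted p = 1.38e-09), the lowest of the 10, and 7.12% of all genes tested fell at least as far. ARO3 (YDR035W, chromosome IV, 521816 to 522928, plus strand) had 311 CPM in both induced libraries, against 534 and 530.1 CPM in the uninduced libraries. The groups did not overlap, and the log2 fold change of ARO3 was -0.77 ± 0.05 (limma, adjusted p = 1.12e-08).

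The coding sequences of ARO3 and ARO4 are of equal length, 1113 bases, and 57.6% of their alignment is identical, with no shared stretch longer than 17 bases, so reads of the pair can be placed. With lengths equal, their levels can be set side by side: ARO3 stood at 1.09 and 1.10 times ARO4 in the induced libraries, against 0.951 and 0.913 times in the uninduced libraries. ARO4 was thus the more abundant transcript of the pair in both uninduced libraries and the less abundant in both induced libraries. A single scaling factor per library leaves this ratio as it is.

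ARO1 (YDR127W, chromosome IV, 704484 to 709250, plus strand) encodes the large pentafunctional arom protein, which carries out the consecutive steps between the DAHP synthase product and the substrate of chorismate synthase. It had 299.9 and 319 CPM in the induced libraries, against 501 and 503 CPM in the uninduced libraries. Both induced values were well below both uninduced values, and the log2 fold change was -0.70 ± 0.05 (limma, adjusted p = 5.68e-08). ARO2 (YGL148W, chromosome VII, 226399 to 227529, plus strand) encodes chorismate synthase, which completes the shared pathway. It had 342 and 374 CPM in the induced libraries, against 396 and 395 CPM in the uninduced libraries. The induced libraries of ARO2 differed more from each other than the nearer of them did from the uninduced ones. Its log2 fold change was -0.14 ± 0.05 (limma, adjusted p = 0.0285), but it was called in 6 of 14 alternatives, with an adjusted p of up to 1.00, and the sign turned to 0.014 after quantile normalization. Without induced library 1, where ARO2 was lower, its log2 fold change was -0.08 (limma, adjusted p = 0.284), and without uninduced library 1 it was -0.14 (limma, adjusted p = 0.0509).

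Within each library the ratio of ARO1 to ARO2, per kb of coding sequence, was 0.208 and 0.202 in the induced libraries, against 0.301 and 0.302 in the uninduced libraries. These neighbouring steps of the pathway therefore changed unequally whatever single factor scales each library, a difference of -0.55 on the log2 scale, described here without a test.

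ARO7 (YPR060C, chromosome XVI, 674861 to 675631, minus strand) encodes chorismate mutase, which makes prephenate for phenylalanine and tyrosine. It had 45.1 and 45.2 CPM in the induced libraries, against 38.7 and 39.4 CPM in the uninduced libraries. ARO7 was the member with the fewest reads and the only one of the 10 in which both induced libraries lay above both uninduced libraries. The log2 fold change was 0.21 ± 0.07 (limma, adjusted p = 0.025), positive in each of 14 alternatives and called in 9 of them. It was not called by DESeq2 (adjusted p = 0.118), against a 1.2-fold change, or without induced library 1, induced library 2 or uninduced library 1 (limma, adjusted p = 0.0921, 0.096 and 0.0722).

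ARO8 (YGL202W, chromosome VII, 116059 to 117561, plus strand) encodes the aromatic aminotransferase that forms phenylalanine and tyrosine from their keto acids. It had 447 and 441 CPM in the induced libraries, against 654 CPM in both uninduced libraries. The groups did not overlap, with a log2 fold change of -0.56 ± 0.05 (limma, adjusted p = 2.94e-07), and of -0.36 after quantile normalization.

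The tryptophan branch begins with anthranilate synthase, a complex of Trp2 with Trp3. TRP2 (YER090W, chromosome V, 337949 to 339472, plus strand) had 209.9 and 217 CPM in the induced libraries, against 258 and 263 CPM in the uninduced libraries. All induced values were below all uninduced ones, with a log2 fold change of -0.29 ± 0.05 (limma, adjusted p = 0.000176). TRP2 was called in 13 of 14 alternatives and did not pass against a 1.2-fold change (limma treat, adjusted p = 0.561). TRP3 (YKL211C, chromosome XI, 36699 to 38153, minus strand), whose protein also closes the indole ring as indole-3-glycerol-phosphate synthase, had 156 and 165 CPM in the induced libraries, against 179 and 176 CPM in the uninduced libraries. The gap between groups was a little wider than the difference between the induced libraries. Its log2 fold change was -0.14 ± 0.05 (limma, adjusted p = 0.0258), and it was called in 8 of 14 alternatives; without induced library 1 it was -0.11 (limma, adjusted p = 0.185), and without uninduced library 1 -0.13 (limma, adjusted p = 0.0864).

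TRP4 (YDR354W, chromosome IV, 1184747 to 1185889, plus strand) encodes the transferase that joins anthranilate to phosphoribosyl pyrophosphate. It had 155 and 153 CPM in the induced libraries, against 168 and 161 CPM in the uninduced libraries. The groups did not overlap, but the gap was smaller than the difference within the uninduced pair. The log2 fold change was -0.09 ± 0.05 with a 95% interval of -0.21 to 0.02 (limma, adjusted p = 0.117), it was called in 0 of 14 alternatives, and with total-count scaling its sign turned to 0.031. TRP5 (YGL026C, chromosome VII, 446412 to 448535, minus strand) encodes tryptophan synthase, the last enzyme of the branch. It had 225 and 228 CPM in the induced libraries, against 244 and 252 CPM in the uninduced libraries. Its induced values were a little below its uninduced ones, with a log2 fold change of -0.13 ± 0.05 (limma, adjusted p = 0.0283), and it was called in 7 of 14 alternatives. Without induced library 1, induced library 2 or uninduced library 2 the adjusted p of TRP5 was 0.124, 0.0751 and 0.136 (limma).

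**Figure D2:**
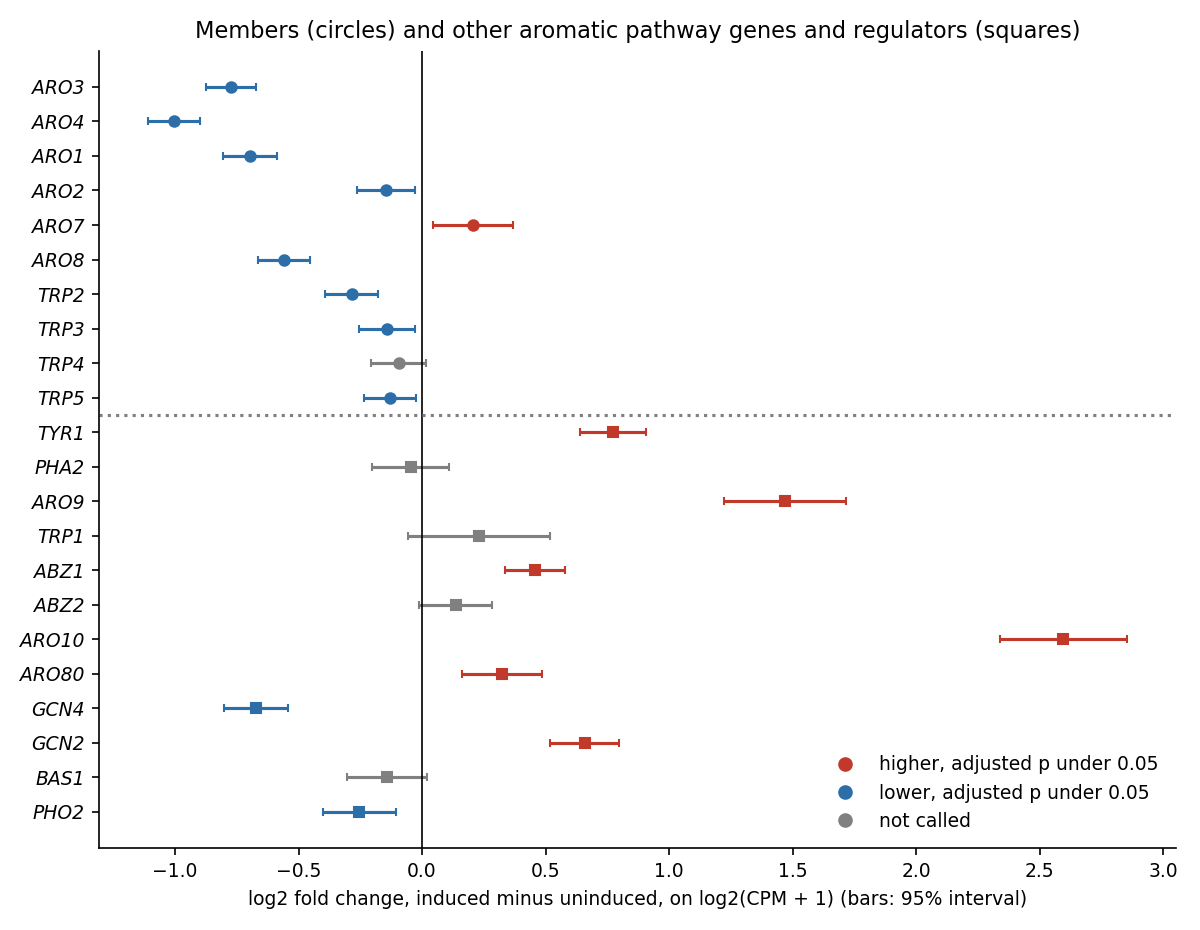
Log2 fold change, induced minus uninduced (horizontal axis), with its 95% interval, for the 10 members (circles, above the dotted line) and for other aromatic pathway genes and regulators (squares). Red and blue mark genes called higher and lower, and grey those not called. The members run from -1.004 (ARO4) to 0.21 (ARO7), with TRP2 at -0.29 and TRP3, TRP4, TRP5 and ARO2 closer to 0 (ARO2 turns to 0.014 after quantile normalization and TRP4 to 0.031 with total-count scaling), whereas TYR1, ARO9 and ARO10 lie at 0.77, 1.47 and 2.60.

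Set against a 1.2-fold change instead of no change, 4 of the 10 members were lower and 0 higher by limma's treat, against 23.2% and 21.3% of all genes tested. They were ARO4, ARO3, ARO1 and ARO8, with adjusted p of at most 8.93e-05. The authors' deposited table called the same 4 genes lower and 0 members higher at its own adjusted p under 0.05, against 19.4% of its rows lower and 19.0% higher. In the authors' deposited table the adjusted p of the other 6 members ran from 0.222 for TRP2 to 0.74 for TRP5. Scaling also mattered: when each library was divided by its own total of reads (total-count scaling), all genes tested had a median of 0.12, and ARO2, TRP3, TRP4 and TRP5 then stood at -0.019, -0.017, 0.031 and -0.0051. A single factor per library shifts these 4 genes and that median nearly alike, so their distance from the median is no separate check.

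**Figure D3:**
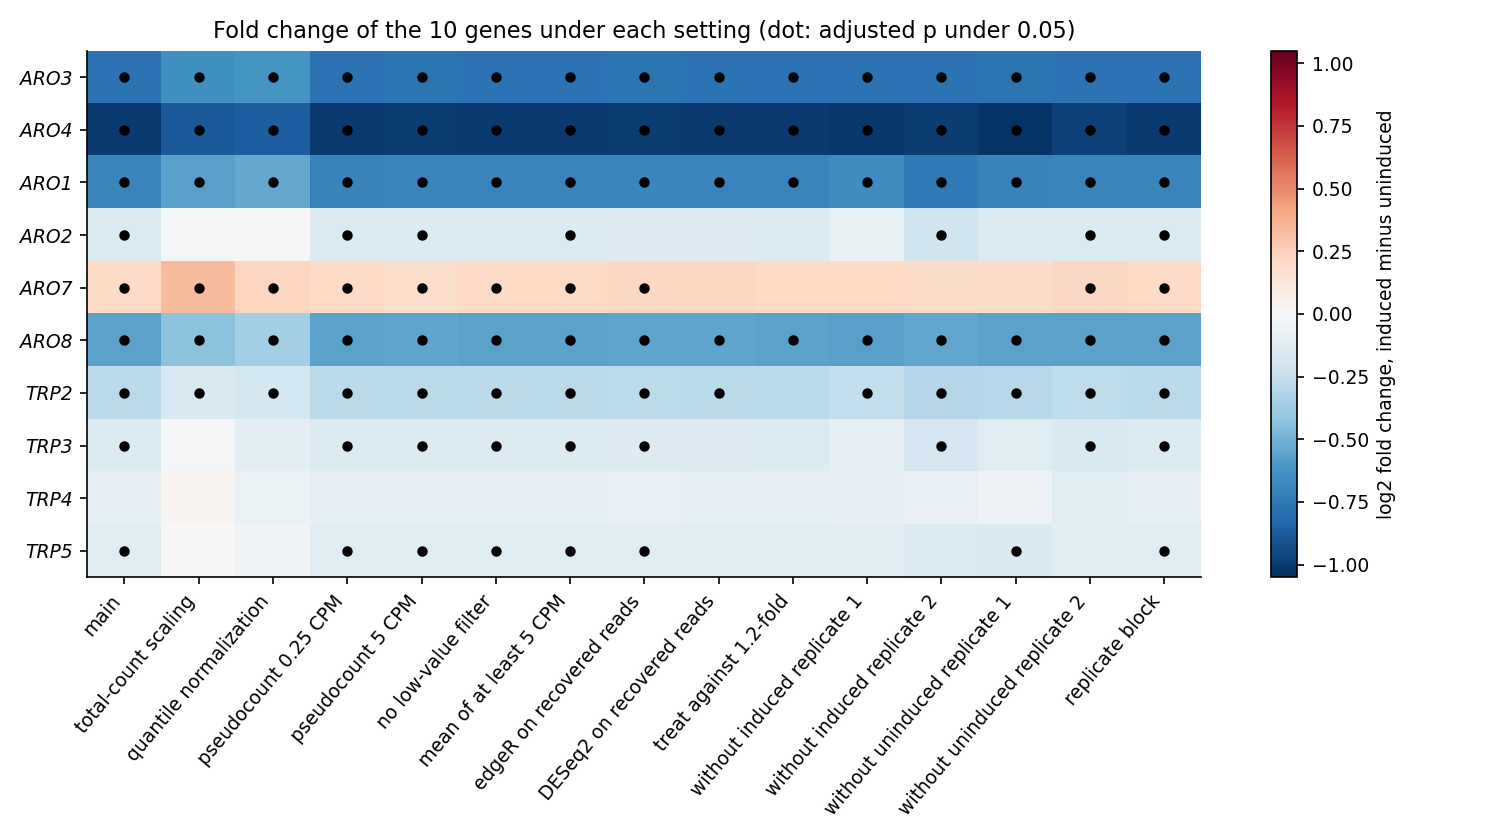
Log2 fold change, induced minus uninduced (colour, blue for lower and red for higher), of the 10 genes (rows) with the main fit and 14 alternatives (columns), with a dot where adjusted p is under 0.05. ARO3, ARO4, ARO1 and ARO8 carry a dot in every column and TRP4 in none, and ARO2, ARO7, TRP3 and TRP5 carry one in some, with the sign of ARO2 turned after quantile normalization and that of TRP4 with total-count scaling.

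A ratio of 2 genes within a library does not change when the library is multiplied by a single factor, although quantile normalization can change it. Per kb of coding sequence, ARO4 stood at 1.89 and 1.90 times TRP4 in the induced libraries, against 3.43 and 3.70 times in the uninduced libraries. At the chorismate branch point, ARO7 stood at 0.425 and 0.412 times TRP2 in the induced libraries, against 0.297 and 0.296 times in the uninduced libraries. In both ratios the groups did not overlap, and the ratios were chosen with the fold changes known, so they are descriptions.

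**Figure D4:**
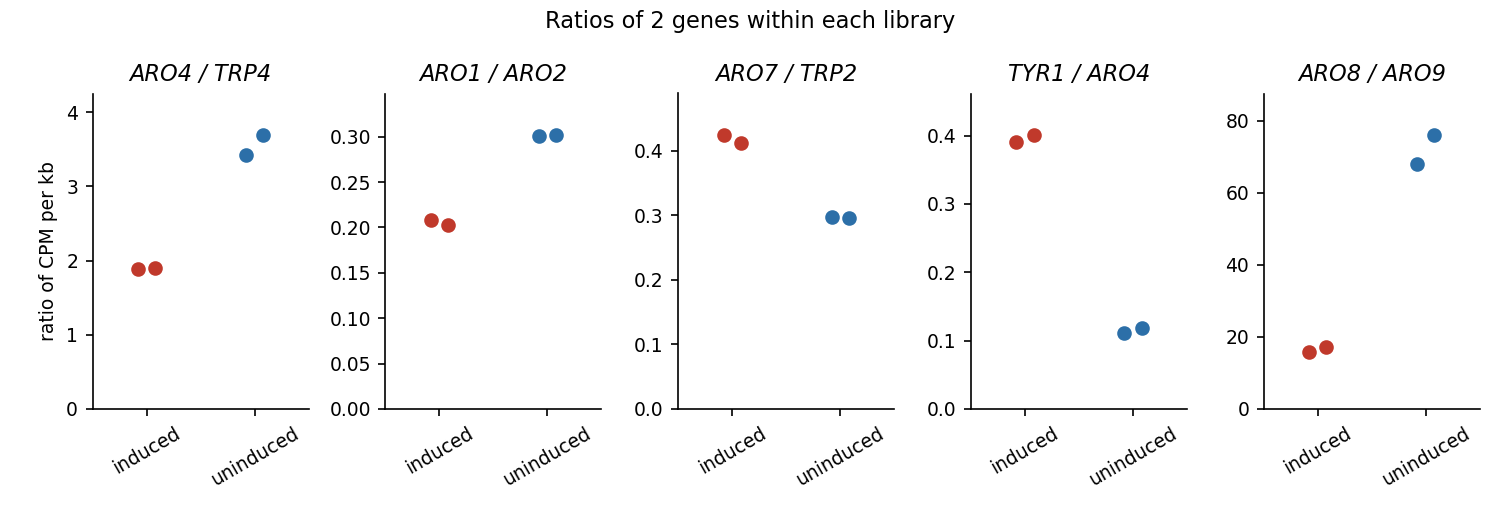
Ratio of CPM per kb of coding sequence between 2 genes within each library (vertical axes, from 0), with a point for each induced (red) and uninduced (blue) library. ARO4 over TRP4, ARO1 over ARO2 and ARO8 over ARO9 were lower in induced libraries, and ARO7 over TRP2 and TYR1 over ARO4 were higher, with no overlap between groups in the 5 ratios drawn.

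The order of levels among the 10 genes, in CPM per kb of coding sequence, was not the same in the 2 groups. In induced cells ARO2 was highest at 316 ± 20.4, followed by ARO8 at 295 ± 3.28, ARO3 at 279 ± 0.000466 and ARO4 at 255 ± 1.73 (SD, n = 2). In uninduced cells ARO4 led at 513 ± 12.01, followed by ARO3 at 478 ± 2.51, ARO8 at 435 ± 0.105 and ARO2 at 349 ± 0.381. The head of the order was thus reversed between induced and uninduced cells. Below these came TRP2, TRP4, TRP3, TRP5, ARO1 and ARO7 in the same order in both groups, from 140.04 for TRP2 to 58.6 for ARO7 in induced cells and from 171 for TRP2 to 50.7 for ARO7 in uninduced cells. Neighbours in the order did not overlap between libraries, except TRP3 and TRP5 in the induced libraries, which were at 110.3 ± 4.08 and 107 ± 1.14 CPM per kb. Some SDs of 2 libraries here lie below counting error, which alone was 1.62% for ARO3 at its fewest reads, so they do not measure precision. The 10 genes together held 0.261% and 0.268% of the reads of the induced libraries, against 0.344% and 0.341% in the uninduced libraries.

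The other genes listed with aromatic synthesis were not called lower, unlike the entry enzymes. Of these 6 genes, 3 were called higher and 0 lower, against 35.6% and 37.0% of all genes tested. The 3 were TYR1, ABZ1 and ARO9, of which ARO9 acts mainly in breakdown, while PHA2, ABZ2 and the marker TRP1 were not called. The median log2 fold change of the 6 was 0.34. TYR1, the prephenate dehydrogenase of the tyrosine branch, had 136 and 139 CPM in the induced libraries, against 76.4 and 83.8 CPM in the uninduced libraries. Both induced values were above both uninduced values, with a log2 fold change of 0.77 ± 0.06 (limma, adjusted p = 1.41e-07). TYR1 thus stood at 0.391 and 0.401 times ARO4 per kb in the induced libraries, against 0.111 and 0.118 times in the uninduced libraries. PHA2, the prephenate dehydratase of the phenylalanine branch, had 47.8 and 48.4 CPM in the induced libraries, against 51.2 and 48.3 CPM in the uninduced libraries, with overlapping groups (-0.05 ± 0.07; limma, adjusted p = 0.581).

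ARO9, the paralog of ARO8 that acts mainly in aromatic amino acid breakdown, had 29.2 and 26.1 CPM in the induced libraries, against 9.88 and 8.82 CPM in the uninduced libraries. It went the opposite way to ARO8, with a log2 fold change of 1.47 ± 0.11 (limma, adjusted p = 1.06e-07). The coding sequences of ARO8 and ARO9 are 47.8% identical over their alignment, and ARO8 stood at 15.7 and 17.3 times ARO9 per kb in the induced libraries, against 67.9 and 76.1 times in the uninduced libraries. ABZ1, which takes chorismate into folate precursor synthesis, averaged 262 ± 0.296 CPM in induced cells and 191 ± 13.5 CPM in uninduced cells (SD, n = 2 each; 0.46 ± 0.06, limma, adjusted p = 9.07e-06). ABZ2, the next enzyme of that route, had 0.14 ± 0.07 (limma, adjusted p = 0.0908; 0.0469 without induced library 1). TRP1, the marker gene, was low, at 8.85 and 9.31 CPM in the induced libraries, against 7.38 and 7.82 CPM in the uninduced libraries (0.23 ± 0.13; limma, adjusted p = 0.135). With total-count scaling ABZ2 and TRP1 were also called higher, and after quantile normalization TRP1 was at -0.0084.

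In the list of aromatic breakdown and export genes, 4 of 9 were called higher and 4 lower (median -0.08, and 0.05 with total-count scaling). Of all genes tested, 35.6% were called higher and 37.0% lower. ARO10, the phenylpyruvate decarboxylase that leads keto acids into fusel alcohol formation, had 31.4 and 35.7 CPM in the induced libraries, against 4.81 and 4.61 CPM in the uninduced libraries. This was the largest change of the list, at 2.60 ± 0.12 (limma, adjusted p = 9.34e-10), and the ratio of means, without the added 1 CPM, was 7.13. The log2 fold change of ARO10 depended on the CPM added, at 1.99 with 5 CPM instead of 1, and was 2.84 by edgeR. Uninduced library 2 had only 46 reads of ARO10. ARO80, the activator of ARO9 and ARO10, was named after its values were seen and had a log2 fold change of 0.32 ± 0.07 (limma, adjusted p = 0.00165). The authors' deposited table did not call ARO80 (authors' adjusted p = 0.108). ESBP6 moved least in that list, at -0.08 (limma, adjusted p = 0.227), and its sign turned to 0.05 with total-count scaling.

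Of the regulators, GCN4, the transcription factor of general amino acid control, which is itself controlled mainly through translation, had 532 and 558 CPM in the induced libraries, against 824 and 915 CPM in the uninduced libraries. Its mRNA was lower in both induced libraries, with a log2 fold change of -0.67 ± 0.06 (limma, adjusted p = 4.05e-07). GCN2, the kinase that senses uncharged tRNA, was higher at 0.66 ± 0.06 (limma, adjusted p = 9.93e-07). PHO2, a homeobox factor that works with Bas1, had -0.25 ± 0.07 (limma, adjusted p = 0.005; 0.119 with total-count scaling and 0.083 without induced library 2), and BAS1, a Myb-type transcription factor, had -0.14 ± 0.07 (limma, adjusted p = 0.103).

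Genes that supply precursors went in different directions. All 5 PRS genes, for synthesis of the phosphoribosyl pyrophosphate that Trp4 uses, were called lower, also under both scaling alternatives. Their log2 fold changes ran from -0.61 ± 0.08 for PRS4 to -0.27 ± 0.06 for PRS1 (limma, adjusted p of 2.00e-05 and 0.00121). Against a 1.2-fold change 3 of them were lower, and the authors' deposited table called 3 lower. Of 11 pentose phosphate genes, whose pathway makes erythrose 4-phosphate, 5 were called higher and 5 lower, against 35.6% and 37.0% of all genes tested. Against a 1.2-fold change 1 was higher and 3 lower, beside 21.3% and 23.2% of all genes tested. RKI1, the ribose-5-phosphate isomerase, changed most, with 7.88 and 7.97 CPM in the induced libraries, against 30.7 and 34.97 CPM in the uninduced libraries (-1.92 ± 0.11; limma, adjusted p = 6.66e-09). TAL1, transaldolase, was at 0.00 ± 0.05 (limma, adjusted p = 0.991), and was called higher at 0.29 after quantile normalization and at 0.13 with total-count scaling.

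Genes of protein synthesis and import that handle the aromatic amino acids were mostly lower. Over all genes tested, 37.0% were called lower and 35.6% higher. All 7 aromatic tRNA synthetase genes were called lower, but 5 under either scaling alternative and 5 in the authors' deposited table. MSW1, named after its values were seen, passed only narrowly (limma, adjusted p = 0.0499). The tryptophanyl-tRNA synthetase gene WRS1 was at -1.03 ± 0.06 (limma, adjusted p = 1.36e-08). FRS2, a subunit of the phenylalanyl enzyme, was at -0.22 ± 0.05 (limma, adjusted p = 0.00268). Its adjusted p was 0.161 after quantile normalization and 0.125 with total-count scaling (limma). Of 6 permease genes that import aromatic amino acids, 5 were called lower and 1 higher. The general permease gene GAP1 fell most, with 352 and 336 CPM in the induced libraries, against 1886 and 1891 CPM in the uninduced libraries (-2.45 ± 0.05; limma, adjusted p = 1.58e-12), and BAP2 moved least, at -0.81. The permease that was higher was TAT2, a tryptophan permease named after its values were seen, at 277 and 280.3 CPM in the induced libraries, against 144 and 148 CPM in the uninduced libraries (0.93 ± 0.05; limma, adjusted p = 3.36e-09).

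In the kynurenine route, which turns tryptophan into NAD, 3 of 6 genes were called higher and 2 lower. The shares over all genes tested were 35.6% and 37.0%. BNA5, kynureninase, had 1571 and 1485 CPM in the induced libraries, against 133 and 135 CPM in the uninduced libraries (3.501 ± 0.05; limma, adjusted p = 1.16e-13). BNA2, the dioxygenase that opens the tryptophan ring, was named after its values were seen and stood at 160 and 169 CPM in the induced libraries, against 44.1 and 39.9 CPM in the uninduced libraries (1.94 ± 0.07; limma, adjusted p = 9.71e-11). RefSeq places another gene, YJR079W, over the BNA2 span, and the strand setting of the counting is not given in the sources used here. BNA6 moved least, at 0.07 (limma, adjusted p = 0.215), and was called higher under both scaling alternatives (0.18 after quantile normalization).

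**Figure D5:**
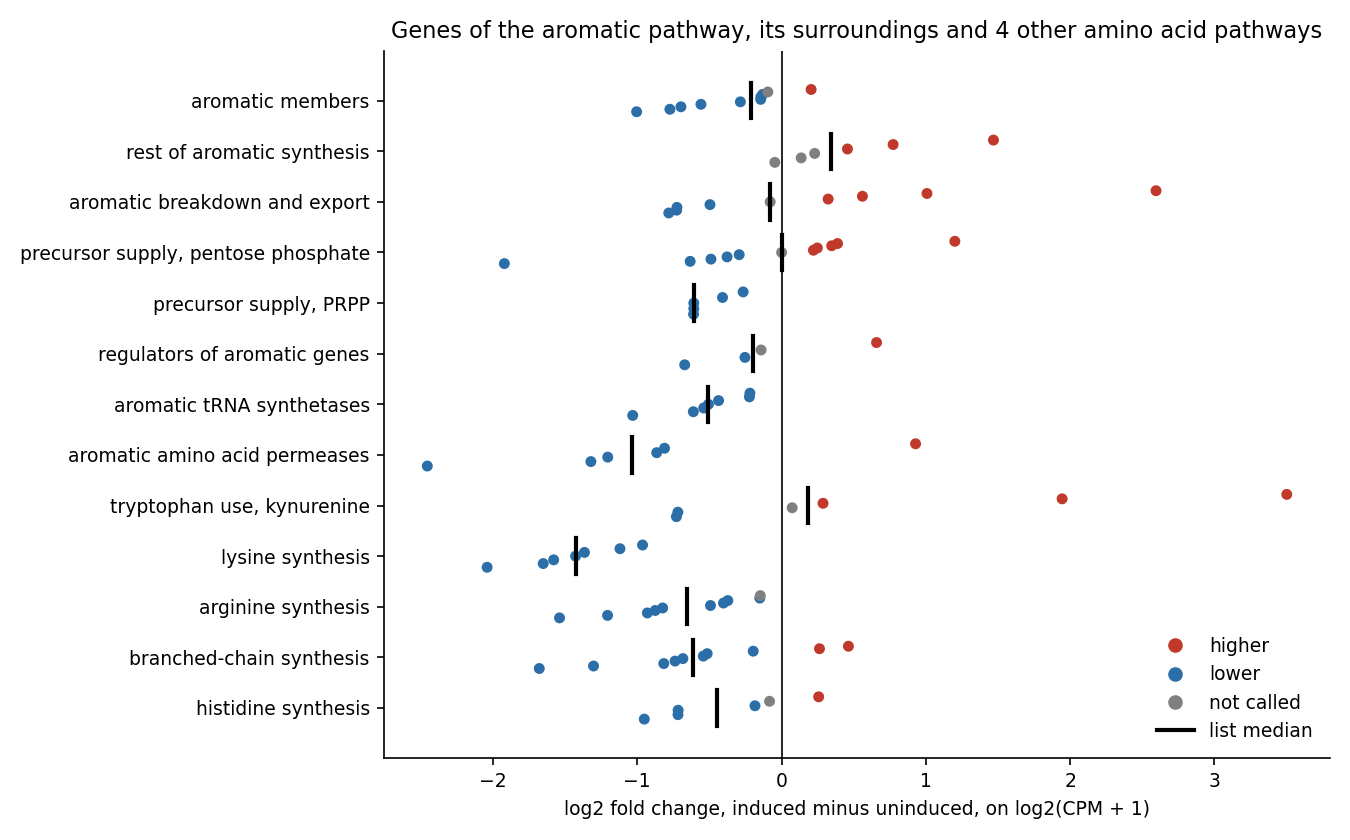
Log2 fold change, induced minus uninduced (horizontal axis), of each gene in 13 lists (rows), with red and blue for genes called higher and lower, grey for those not called and a black line for the list median. The aromatic members have a median of -0.21 (-0.09 with total-count scaling), nearer to 0 than the medians of lysine (-1.43), arginine (-0.66), branched-chain (-0.61) and histidine (-0.45) synthesis.

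Other amino acid pathways give the setting for these values, beside 37.0% called lower and 35.6% higher over all genes tested. In lysine synthesis 7 of 7 genes were called lower with a median of -1.43, in arginine synthesis 9 of 10 with a median of -0.66, in branched-chain synthesis 8 of 10 with 2 higher and a median of -0.61, and in histidine synthesis 4 of 6 with 1 higher and a median of -0.45. The aromatic median of -0.21 was nearer to 0 than any of these 4, as it was under both scaling alternatives, and whether the lists differ was not tested. The genes that moved most were LYS20 (-2.04), ARG3 (-1.54), LEU9 (-1.68) and HIS4 (-0.95), and those that moved least were LYS4 (-0.96), ORT1 (-0.15), LEU4 (-0.20) and HIS6 (-0.08, and 0.04 with total-count scaling). The full Gcn4 motif was in 2 of 7 windows of the lysine list, 5 of 10 of the arginine list, 5 of 10 of the branched-chain list and 4 of 6 of the histidine list, beside 3 of 10 of the aromatic members.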

How the data were processed

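RNA of 4 Saccharomyces cerevisiae cultures, 2 induced and 2 uninduced, was sequenced after hot acid phenol extraction and stranded mRNA library preparation, per the labels' protocols. The submitters' processing notes name TopHat2 version 2.0.13, HTSeq, edgeR and the builds sacCer3 and R64, with no role for each. Per the file headers the deposited values are CPM, which the authors scaled to a normalized signal, since column sums differ between libraries (945865 to 1041890). The authors deposited their own log2 fold change, p-value and FDR-adjusted p-value, used only where named. All values were whole multiples of 1 step per column within 0.001 reads, 100% in each column, so reads were recovered. In uninduced library 2 the step lies near a round decimal fraction, which makes this weaker evidence there.

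limma 3.58.1 (R 4.3.3) was fitted to log2(CPM + 1) over all genes with a mean of at least 1 CPM, with group as the term and a variance trend. This is the test planned for CPM. edgeR 4.0.16 and DESeq2 1.42.0 were run on recovered reads. Other alternatives were pseudocounts of 0.25 and 5 CPM, no filter, a minimum of 5 CPM, both scalings, limma's treat, leaving out each library and a replicate block. Fits were tested on simulated data. Gene spans and sequences come from RefSeq R64, the build named in the notes, and all listed genes matched. Genes named are the members, the other aromatic synthesis genes, the regulators, and from each other list the called gene that moved most and the gene that moved least, apart from those stated as named after their values were seen. Members and lists were chosen with earlier results of these data known.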

Additional observations from a re-analysis of the deposited data

How the results depend on the processing

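Members called lower numbered 8 (authors' scaling), but 5 with total-count scaling, 5 after quantile normalization, 5 with DESeq2 and 4 against a 1.2-fold change, and 5 to 7 with single libraries left out (5 without induced library 1). Members called higher numbered 1, and 0 with DESeq2, against a 1.2-fold change and without induced library 1, induced library 2 or uninduced library 1 (range 0 to 1). The members' median of -0.21 was -0.089 with total-count scaling, -0.15 after quantile normalization, -0.20 with edgeR, and -0.26 to -0.19 with single libraries left out. Against a 1.2-fold change, all genes called numbered 1286 higher and 1399 lower, against 2152 and 2235, and the 87 other listed genes had 12 higher, against 20. Signs turned for ARO2 (0.014) and TRP1 (-0.0084) after quantile normalization, and the cause was not tested. With total-count scaling signs turned for TRP4 (0.031) and PHA2 (0.077). That scaling applies a single factor per library, which shifts the log2 fold changes of well-expressed genes nearly alike. Total-count scaling put the median of all genes at 0.12. With the replicate block 8 members were lower and 1 higher, and 2219 genes higher and 2293 lower. Deviations of same-numbered libraries correlated at -0.136 over 6037 genes, and with the numbers crossed, a fit added after seeing this, 2162 genes were higher and 2237 lower. The log2 fold changes of ARO2, TRP3, TRP4 and TRP5 were at most 0.14 in size with an SE of 0.05 each. Adjusted p also depended on the low-value filter. Without the filter it was 8.07e-05 for ARO4 and 2.71e-05 for BNA5 (limma), against 1.38e-09 and 1.16e-13 with it. In the authors' deposited table the adjusted p of ARO4 was 7.43e-05.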
